A study of Drosophila melanogaster with 2 samples.

Results

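The Drosophila genes that encode insulator and promoter factors were examined for binding of the chromosomal protein D1. The rule names the genes and uses no measured value, although they were picked with earlier results of these data known: Trl, row, CTCF, su(Hw), BEAF-32, Cp190, mod(mdg4), pita, Dref and M1BP, 10 of the 13945 protein-coding genes on the 6 chromosomes analysed. Each gene was given a window of its body with 5 kb either side, and every peak with its summit in a window was taken. Chromatin came from whole Drosophila melanogaster pupae, aged 24 hours, of 1 transgenic line that stably expresses D1 with a C-terminal GFP (D1-eGFP) from an inserted transgene. It was precipitated with an antibody against GFP in 2 biological replicates, and sex was not collected. The design had 1 group and no second condition, and nothing could be compared by a test. The authors' controls were not analysed here. Whole pupae mix many cell types, so a weak peak in many cells and a strong one in few cells cannot be told apart. The fusion was measured in place of untagged D1, and the promoter that drives it was not given in the sources used here.

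Insulator factors bind DNA between genes or at gene starts and keep enhancers, promoters and chromatin domains apart. In Drosophila some of them read a DNA word themselves, such as CTCF, su(Hw), BEAF-32, pita and Trl, and others, such as Cp190 and mod(mdg4), are recruited as partners. Dref and M1BP bind words close to the starts of widely expressed genes. D1 carries AT hooks, short segments that lie in the minor groove of A/T-rich DNA, and is best known from AT-rich satellite repeats. The comparison asked where D1 lay at the genes for these factors.

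Peaks of the authors' stringent set were found at Trl, row and mod(mdg4), and not at the other 7 genes. That set holds 3388 peaks and rests on the irreproducible discovery rate (IDR), a measure of how well replicates rank the same peaks. Longer lists hold 30000 peaks each, for replicate 1, replicate 2 and the pool of both. The windows held 7 IDR peaks: 3 at Trl, 2 at row and 2 at mod(mdg4). The 3 genes with an IDR peak were 3 of 10 members, against 27.3% of all protein-coding genes, so the share was near the background. An IDR summit lay within 500 bp of an annotated start in 2 members, Trl and row, against 8.46% of all protein-coding genes. Trl has 4 annotated starts, and this share was not split by gene length or number of starts. Without replicate 2, in the 3388 highest peaks of replicate 1, that count was 1, row, since the Trl peak ranked 3987 there. Within 250 bp of a start the IDR set gave 0. With gene bodies alone, 1 member had an IDR peak, Trl. BEAF-32 had entries in the pooled and replicate lists and no IDR peak. The other 6 members had no pooled peak, against 42.8% of all protein-coding genes, and 4 of them, CTCF, Cp190, pita and M1BP, had no entry in the pooled or either replicate list, against 33.8%.

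Long genes collect more peaks, and the members differ in length. The median body was 4473 bp for the members and 2166 bp for all protein-coding genes. Both members with a body over 10 kb, Trl and mod(mdg4), had an IDR peak, against 53.2% of genes of that length. Of the 6 members with a body of 3 to 10 kb, row alone had one, against 29.5%. Neither member under 3 kb, BEAF-32 and M1BP, had one, against 20.5%. Pooled peaks were missing at 5 of the 6 members of 3 to 10 kb (su(Hw), CTCF, Cp190, pita and Dref), against 42.5%, and at 1 of 2 under 3 kb, M1BP, against 49.4%. Over all member windows the IDR set gave 40.8 summits per Mb, against 25.4 per Mb over the 6 chromosomes. The first value rests on 7 summits in 0.172 Mb, 3 of them nearest to a neighbour's start. The second covers whole chromosomes and not the windows of other genes. The pooled list went the other way, with 140 summits per Mb in the member windows and 224 per Mb over the chromosomes. Replicate 1 gave 175 and replicate 2 gave 134 per Mb in the member windows, both under the 224 per Mb of each list over the chromosomes.

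The sequences at 4 of the 7 IDR summits are shown, those outside coding exons at Trl and mod(mdg4), because A/T-rich DNA is what D1 is known to bind. Each is the 200 bp centred on the summit in the dm6 assembly, printed 5′ to 3′, and capitals mark every unbroken run of 8 or more A or T bases.
Trl, upstream intron peak, chr3L:14759401-14759600, plus strand: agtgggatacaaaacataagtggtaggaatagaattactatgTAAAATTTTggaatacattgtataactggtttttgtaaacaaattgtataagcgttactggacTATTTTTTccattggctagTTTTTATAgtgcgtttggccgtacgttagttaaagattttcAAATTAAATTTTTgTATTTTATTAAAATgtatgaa
Trl, downstream intron peak, chr3L:14755966-14756165, plus strand: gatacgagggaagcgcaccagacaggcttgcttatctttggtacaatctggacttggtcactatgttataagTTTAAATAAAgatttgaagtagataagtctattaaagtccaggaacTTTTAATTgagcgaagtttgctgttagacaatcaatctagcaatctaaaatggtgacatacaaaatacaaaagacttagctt
mod(mdg4) window, peak at tin, chr3R:21378640-21378839, plus strand: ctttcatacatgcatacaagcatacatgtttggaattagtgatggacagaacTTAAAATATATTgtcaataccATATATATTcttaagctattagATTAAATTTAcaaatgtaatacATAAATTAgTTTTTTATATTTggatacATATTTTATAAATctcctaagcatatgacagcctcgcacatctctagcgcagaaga
mod(mdg4) window, peak at aus, chr3R:21349836-21350035, plus strand: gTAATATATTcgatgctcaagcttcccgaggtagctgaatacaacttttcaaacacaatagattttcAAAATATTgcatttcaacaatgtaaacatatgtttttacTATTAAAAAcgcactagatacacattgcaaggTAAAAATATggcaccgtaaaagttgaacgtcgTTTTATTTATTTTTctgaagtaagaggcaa

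Trl encodes GAGA factor, a BTB-domain zinc finger protein that binds GAGAG words, opens chromatin at promoters and also acts at insulators. The gene, FBgn0013263, lies on chromosome arm 3L from 14747929 to 14761049 on the minus strand, spans 13121 bp and has 4 annotated start positions. It held the highest peak of any member window. That peak, with its summit at 14759501 in an intron of the longest transcript, had a signal of 779, rank 22 of the 3388 IDR peaks. Signals are as the authors gave them, on a scale that was not given in the sources used here, and ranks are read within 1 list. Replicate 1 had the same peak at signal 361 and rank 29 of its own list, and replicate 2 at 425 and rank 16. The summit lay 1548 bp past the outermost start and 1539 bp before the next start, away from either. The outermost start lies inside the overlapping gene Tsen34, and the other 3 starts form a cluster downstream of the peak.

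The downstream intron peak of Trl, at 14756066, had an IDR signal of 251 at rank 997. It lay 1270 bp inside the gene from the nearest start, in an intron shared by Trl and the overlapping gene CG42507. Replicate 1 gave it 131 at rank 859 and replicate 2 gave 134 at rank 1029, close in both signal and rank. The lowest of the Trl peaks, at 14757048, had 169 at rank 2373 and was the one within 500 bp of a start, 288 bp inside the gene. Its summit fell in a coding exon, as did only 16 of the 3388 IDR summits over all genes. The replicates were less alike there, at 63.9 and rank 3987 in replicate 1 and 98.3 and rank 2165 in replicate 2. A window with 3 or more IDR peaks was found for Trl, against 18.5% of genes with a body over 10 kb, a count chosen after the values were seen.

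Besides its IDR peaks, Trl had weaker entries. The pooled list held 9 summits in its window, replicate 1 held 12 and replicate 2 held 9. The pooled entry closest to the IDR set had a signal of 137 at rank 3633, just outside the lowest IDR signal of 142, and lay in an intron of the neighbour ome. A pooled entry of 118 at rank 4773 lay in a Trl intron, 2148 bp from the nearest start.

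row encodes a zinc finger protein found with its relative woc and the heterochromatin-related protein HP1c at active promoters. The gene, FBgn0033998, lies on 2R from 15206527 to 15213634 on the minus strand. Its own promoter carried an IDR peak at 15213949, 315 bp upstream of its 1 annotated start, with a signal of 213 at rank 1475. Both replicates ranked it higher in their own lists: 153 at rank 569 in replicate 1, and 181 at rank 414 in replicate 2. Their summits lay 66 and 95 bp closer to the start than the IDR summit. The IDR signal was 0.638 times the sum of the replicate signals, the lowest of the 3114 IDR peaks that had a summit within 100 bp in both replicates. The next lowest ratio was 0.655, the median was 1.00, and 5% to 95% of the ratios lay between 0.945 and 1.09. The cause was not tested.

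The higher peak of the row window belongs by position to a neighbour. It lay at 15217764, 147 bp upstream of mRpL41, which encodes a mitochondrial ribosomal protein, and 4130 bp upstream of row. Its signal was 737 at rank 27, with 382 at rank 20 in replicate 1 and 353 at rank 34 in replicate 2. Between it and the upstream intron peak of Trl the order changed with the replicate, since Trl was higher in replicate 2 and the mRpL41 peak in replicate 1. Beside its IDR peaks the row window held 1 further pooled summit.

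mod(mdg4) encodes BTB-domain proteins, made by trans-splicing of many alternative 3′ exons, and one of them is a partner of su(Hw) at the gypsy insulator. The gene, FBgn0002781, lies on 3R from 21350846 to 21377401 on the minus strand, and its body of 26556 bp contains 23 genes annotated as pre-mod(mdg4), of which 9 run on the other strand. No summit of the pooled or either replicate list fell in this body. Of all protein-coding genes with a body of 20 to 35 kb, 13.0% were likewise empty in those lists, a length range set after the values were seen. Both IDR peaks of its window lay in the flanks. The higher, at 21378740, had a signal of 357 at rank 380 and lay 237 bp upstream of tin, the homeobox gene tinman that specifies heart, and 1339 bp upstream of mod(mdg4). The replicates differed in it, with 135 at rank 803 in replicate 1 and 214 at rank 230 in replicate 2. The lower, at 21349936, had 205 at rank 1609 and lay 335 bp upstream of aus and 910 bp past the 3′ end of the mod(mdg4) body. Replicate 1 gave it 104 at rank 1526 and replicate 2 gave 93.7 at rank 2409.

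**Figure D1:**
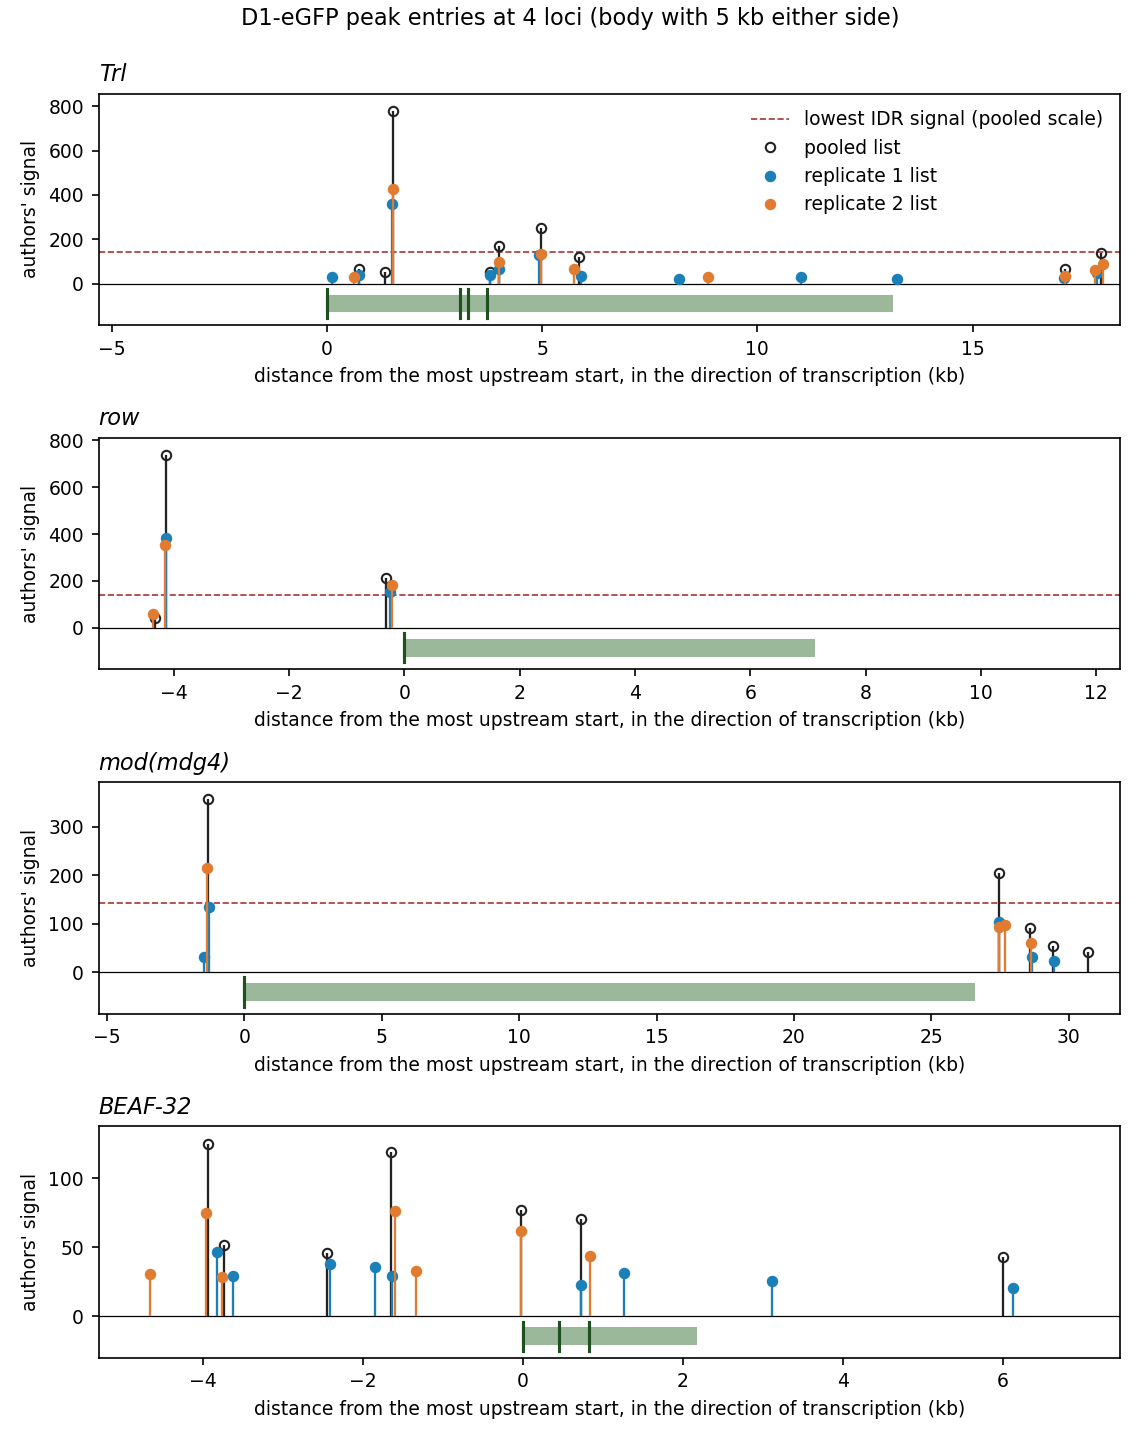
Summits in the Trl, row, mod(mdg4) and BEAF-32 windows, with distance from the most upstream start in the direction of transcription (kb) on the x axis and the authors' signal on a linear y axis, by peak list. The green bar is the gene body, dark ticks are annotated starts and the dashed line is the lowest IDR signal, 142, which applies to the pooled list: Trl has its highest peak inside the body, and the mod(mdg4) body is empty.

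BEAF-32, the boundary element factor that binds CGATA words near housekeeping promoters, had a different pattern from the genes above: many entries, all below the IDR set. The gene, FBgn0015602, lies on 2R from 14770469 to 14772630 on the plus strand, with 3 annotated starts. Its window held 7 pooled summits, 9 in replicate 1 and 7 in replicate 2, and the nearest IDR summit was 112428 bp away. A window with 7 or more pooled summits and no IDR summit was found for 2.33% of genes with a body under 3 kb, a threshold set after the values were seen. The highest pooled entry had a signal of 125 at rank 4269 and the next 119 at rank 4714, and both lay in introns of Spred, an inhibitor of Ras signalling. At BEAF-32 itself a pooled entry of 77.2 at rank 10805 lay 19 bp upstream of a start. Replicate 2 had it at 61.7 and rank 5963, and replicate 1 had no summit within 100 bp. A second pooled entry, of 70.3 at rank 12802, lay in the 5′ UTR at 14771200. Replicate 1 had a summit at 14771198, with a signal of 22.5 at rank 25702, and the closest of replicate 2 lay at 14771311, over 100 bp away, with 43.5 at rank 12112. Near the starts of BEAF-32 each of these 2 pooled entries thus had a summit within 100 bp in 1 replicate. Their -log10 q-values, as the authors gave them, were low, at 1.05 and 0.870. The 2 highest pooled entries of the window had 2.15 and 2.04, and the 7 IDR peaks had 3.20 to 3.66.

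The remaining DNA-binding insulator factors had next to nothing. CTCF, the zinc finger insulator protein shared with vertebrates (FBgn0035769, 3L from 7353578 to 7356713), had no entry in any list, and its nearest IDR summit was 76782 bp away. su(Hw), the zinc finger protein of the gypsy insulator (FBgn0003567, 3R from 14304455 to 14308589), had 1 replicate 1 entry of signal 22.4 at rank 25952, in a coding exon of CG31321, and nothing in replicate 2. The -log10 q-value of that entry was low, at 0.430. The nearest pooled summit to su(Hw) was 6674 bp and its nearest IDR summit 12934 bp away. pita, a zinc finger protein that recruits Cp190 (FBgn0034878, 2R from 23548967 to 23554712), had no entry, and its nearest IDR summit was 63496 bp away.

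Cp190, the BTB-domain cofactor that the DNA-binding insulator proteins share (FBgn0000283, 3R from 15270432 to 15275241), had no entry either. Its nearest pooled summit lay 5319 bp from the gene, just outside the window, and its nearest IDR summit lay 10958 bp away. Of the promoter factors, Dref, which binds the DNA replication-related element (FBgn0015664, 2L from 9964147 to 9967229), had 1 replicate 1 entry of 36.5 at rank 11499, 2858 bp upstream, and none in replicate 2. That entry had a -log10 q-value of 1.03. The nearest pooled summit to Dref lay 5343 bp away. M1BP, which binds the Motif 1 word at promoters with paused polymerase (FBgn0037621, 3R from 8729790 to 8731698), had no entry, and 14851 bp separated it from the nearest pooled summit, which was also an IDR summit.

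**Figure D2:**
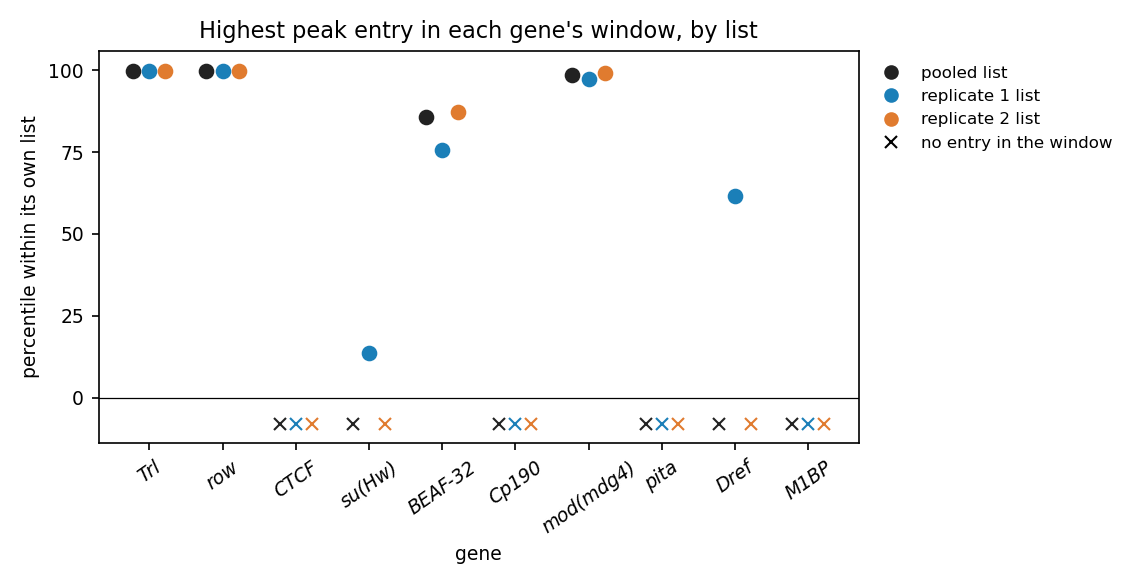
Highest entry in each member's window by percentile within its own list, for the pooled list and each replicate, with a cross below 0 where a list has no entry. Trl, row and mod(mdg4) lie between 97.3 and 99.95 in the 3 lists, BEAF-32 between 75.8 and 87.3, and su(Hw) and Dref have 1 point each, from replicate 1. The points of row and mod(mdg4) are the peaks nearest to the starts of their neighbours mRpL41 and tin.

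IDR peaks were picked for replicate agreement, so a match between replicates at the member peaks is no separate support for them. Each of the 7 IDR peaks had a summit within 100 bp in both replicate lists, against 3114 of 3388 IDR peaks, 91.9%. The log2 ratio of replicate 2 over replicate 1 had a median of 0.24 over the 7 peaks and 0.16 over all matched IDR peaks. Its SD was 0.33 over the 7 and 0.53 over all. The ratio was highest at tin, 0.67, and in the coding exon of Trl, 0.62, and it was lowest at aus, -0.14. The median IDR signal was 251 over the 7 peaks and 201 over all IDR peaks. The lowest member peak, at 169, stood above the lowest IDR signal of 142.

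A/T content at the member summits covered a wide range. In the 200 bp around the summit it averaged 65.9 ± 11.1% (SD over 7 peaks), against 66.6 ± 6.89% over all 3388 IDR peaks. Peaks that share a window are not independent. The mRpL41 peak of the row window had 74.5%, the upstream intron peak of Trl 73.0%, the peak at tin 72.0%, that at aus 69.0%, that at row 65.5% and the downstream intron peak of Trl 65.0%. At row the replicate summits, which sat closer to the start, had 71.5% in replicate 1 and 73.5% in replicate 2. At the downstream intron peak of Trl the replicate 1 summit lay 57 bp from the IDR summit and had 73.0%. The replicate 2 summit was the same as the IDR summit, with 65.0%. Around the IDR summits, the 3 highest peaks, at ranks 22, 27 and 380, were the 3 richest in A/T. The coding-exon peak of Trl stood apart at 42.0%. Only 6 of the 3388 IDR peaks, 0.177%, had less A/T, and its longest A/T run was 4 bp, the shortest in the IDR set and shared by 6 peaks in all. Under 50% A/T was found at 63 IDR peaks, 1.86%. Runs in the printed sequences reached 14 bp in the upstream intron peak of Trl and at aus, and 13 bp at tin, and the longest run averaged 11.3 ± 3.68 bp over the 7 peaks, against 14.3 ± 5.90 bp over all IDR peaks.

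The satellite unit AATAT, on either strand, separated the loci. It was found in 4 of the 7 peaks, against 75.0% of IDR peaks: in both peaks of the row window and both of the mod(mdg4) window, and in none of the 3 Trl peaks. The upstream intron peak of Trl thus had long A/T runs but no AATAT in these 200 bp. TATAAA lay in 2 peaks, against 39.5% of IDR peaks. The words read by the factors themselves were counted in the same peaks. GAGAG (Trl) was in 0 of 7, against 21.0% of IDR peaks; CGATA (BEAF-32) in 2, those in the coding exon of Trl and at row, against 22.1%; and TGCATA, part of the su(Hw) word, in 1, that at tin, against 17.1%. AGNNGGCGC (CTCF) was in 1, that at row, against 2.57%. TATCGATA (Dref), which contains CGATA, was in 0, against 1.62%, and GGTCACACT (M1BP) in 0, against 0.767%. With 7 peaks these counts describe the loci and nothing more.

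**Figure D3:**
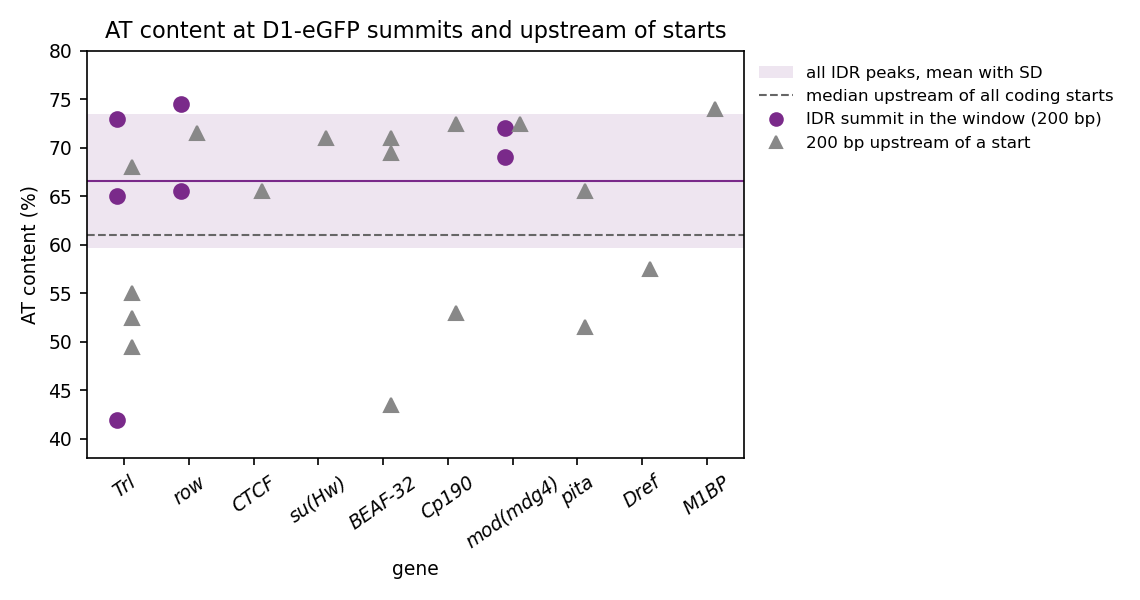
A/T content (%) by gene: circles are the 200 bp around the 7 member IDR summits, triangles the 200 bp upstream of the 17 member starts, the band the mean and SD of all 3388 IDR peaks (66.6 ± 6.89%), and the dashed line the median of all coding starts, 61.0%. The coding-exon peak of Trl lies far below the band at 42.0%, and the other 6 circles lie near or in it. Starts of M1BP, Cp190, mod(mdg4) and su(Hw) reach the range of these circles with no pooled summit within 500 bp. Starts of row, at 71.5%, and BEAF-32, at 71.0%, lie in the same range and have a pooled summit within 500 bp.

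Several member starts with no pooled summit within 500 bp had upstream DNA as rich in A/T as member IDR summits, and others had less. The 5 sequences shown are the 200 bp before a start of members with no pooled summit within 500 bp of it, chosen after the values were seen so that they can be read beside the summits above. Each is printed 5′ to 3′ on the gene's strand, and capitals again mark A/T runs of 8 or more.
M1BP, upstream of its start, chr3R:8731699-8731898, minus strand: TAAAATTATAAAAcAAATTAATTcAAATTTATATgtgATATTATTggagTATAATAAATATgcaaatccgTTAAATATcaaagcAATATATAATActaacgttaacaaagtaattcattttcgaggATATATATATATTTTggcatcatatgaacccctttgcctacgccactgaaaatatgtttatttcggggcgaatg
su(Hw), upstream of its start, chr3R:14308590-14308789, minus strand: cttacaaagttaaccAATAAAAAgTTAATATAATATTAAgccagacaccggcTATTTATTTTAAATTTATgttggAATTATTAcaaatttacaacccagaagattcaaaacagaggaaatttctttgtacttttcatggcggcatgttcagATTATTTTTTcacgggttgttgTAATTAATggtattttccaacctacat
Cp190, upstream of its outer start, chr3R:15275242-15275441, minus strand: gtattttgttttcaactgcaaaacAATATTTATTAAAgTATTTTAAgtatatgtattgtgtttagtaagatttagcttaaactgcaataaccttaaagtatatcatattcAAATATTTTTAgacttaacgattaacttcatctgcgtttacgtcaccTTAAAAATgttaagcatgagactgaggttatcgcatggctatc
mod(mdg4), upstream of its start, chr3R:21377402-21377601, minus strand: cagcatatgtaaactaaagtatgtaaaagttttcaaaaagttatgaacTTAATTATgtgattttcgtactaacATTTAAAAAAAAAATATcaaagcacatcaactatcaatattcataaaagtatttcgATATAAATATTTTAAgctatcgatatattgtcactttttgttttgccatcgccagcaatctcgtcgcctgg
CTCF, upstream of its start, chr3L:7356714-7356913, minus strand: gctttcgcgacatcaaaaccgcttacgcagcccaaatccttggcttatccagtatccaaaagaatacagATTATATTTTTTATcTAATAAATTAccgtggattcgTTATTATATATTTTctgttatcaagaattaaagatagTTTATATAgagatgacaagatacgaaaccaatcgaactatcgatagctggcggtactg

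M1BP had 74.0% A/T upstream of its start, more than 95.5% of coding starts, with 8 runs of 8 or more. Cp190 at its outer start and mod(mdg4) had 72.5% each, more than 92.3% of coding starts. su(Hw) had 71.0% and the longest run of the 17 member starts, 18 bp. In the 200 bp around the 7 IDR summits the longest run was 14 bp. This depends on where the summit is placed. Around the replicate 1 summit of the downstream intron peak of Trl, the longest run was also 18 bp. CTCF had 65.5%, the same as the median of the 17 member starts, against a median of 61.0% over all coding starts. The starts not printed of members with no pooled peak had 51.5% and 65.5% at pita, 57.5% at Dref and 53.0% at the inner start of Cp190. None of the 4 starts with 70% or more just named, those of M1BP, Cp190, mod(mdg4) and su(Hw), had a pooled summit within 500 bp. Of the 17 member starts 6 reached 70% A/T, a threshold set after the values were seen, against 15.1% of coding starts. An IDR summit lay within 500 bp of 1 of these 6, that of row, against 9.52% of all such starts, and a pooled summit within 500 bp of 2, those of row and BEAF-32, against 26.5%. Of the 11 member starts with less A/T, 1 had an IDR summit, a start of Trl, against 7.18%. Most coding starts of both A/T classes thus had no IDR summit within 500 bp, and whether A/T content matters was not tested.

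Over the whole windows, the share of 200 bp stretches at or above the mean A/T content of IDR peaks was counted. It was 26.7% for BEAF-32, 21.0% for Trl, 20.1% for mod(mdg4) and 18.2% for Dref, then 15.9% for M1BP, 14.7% for row, 13.8% for CTCF and 12.1% for su(Hw). Cp190 had 8.28% and pita 8.10%. The median was 18.6% over the 3811 protein-coding genes with an IDR peak in the window and 11.1% over the 5972 with no pooled peak, whose quartiles were 7.50% and 15.8%. Cp190 and pita sat near the low quartile of the genes with no pooled peak. Of the others with none, CTCF and su(Hw) lay between the quartiles, M1BP about at the high one and Dref above it. row, with an IDR peak, stood close to the low quartile of its own class, 14.3%. Every member window had at least 1 stretch of 75.5% A/T or more, and M1BP had the highest, 86.0%.

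The members' own promoters were searched for the same words. TATCGATA, the Dref word, was found between 250 bp upstream and 50 bp downstream of a start in 5 of 10 members (CTCF, BEAF-32, Cp190, mod(mdg4) and pita), against 10.2% of protein-coding genes. In the printed sequences it can be read near the start in CTCF and mod(mdg4). CGATA, which TATCGATA contains, was found in 7 of 10, the same 5 with row and Dref, against 53.0%. GAGAG was found in 2, Trl and pita, against 36.3%; GGTCACACT in 1, su(Hw), against 6.78%; and TGCATA in 2, pita and M1BP, against 19.2%. AGNNGGCGC was in none, against 3.86%. AATAT was in 9 of 10, all but Dref, against 76.3%, and TATAAA in 6, against 51.2%. All were searched on both strands. A match is a string of letters and not a bound site, and genes with more starts have more windows.

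Of 30 other genes listed for architectural and promoter factors, 29 matched the annotation. An IDR peak lay in the window of 3 of 10 members (30.0%) and of 7 of the 29 others (24.1%), and within 500 bp of a start in 20.0% of members and 20.7% of the others. No pooled peak was found at 60.0% of members and 41.4% of the others, whose share stood near the 42.8% of all protein-coding genes. The members' share hangs on the 5 kb flank, since pooled summits lay 5319 bp from Cp190 and 5343 bp from Dref. Other flanks were not tried for it. The 6 others with a promoter peak were lola, which encodes many BTB-domain isoforms, at signal 313 (rank 552), shep, an RNA-binding protein that tempers gypsy insulator activity, at 261 (rank 896), psq, a BTB protein that like Trl binds GAGAG, at 218 (rank 1394), grh, the Grainy head factor of epithelia, at 203 (rank 1654), Nipped-B, the cohesin loader, at 180 (rank 2098), and Trf2, a relative of the TATA-binding protein, at 170 (rank 2353). The peak counted for grh lay nearest to the start of the antisense gene asRNA:CR45270. row, at 213, stood between psq and grh, and the coding-exon peak of Trl, at 169, just below Trf2. These 6 genes have bodies of 23740 bp (Trf2) to 122124 bp (shep). They are the 6 of 9 other factor genes over 10 kb with an IDR peak in the window, against 53.2% of all protein-coding genes of that length, so list and gene length cannot be told apart.

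**Figure D4:**
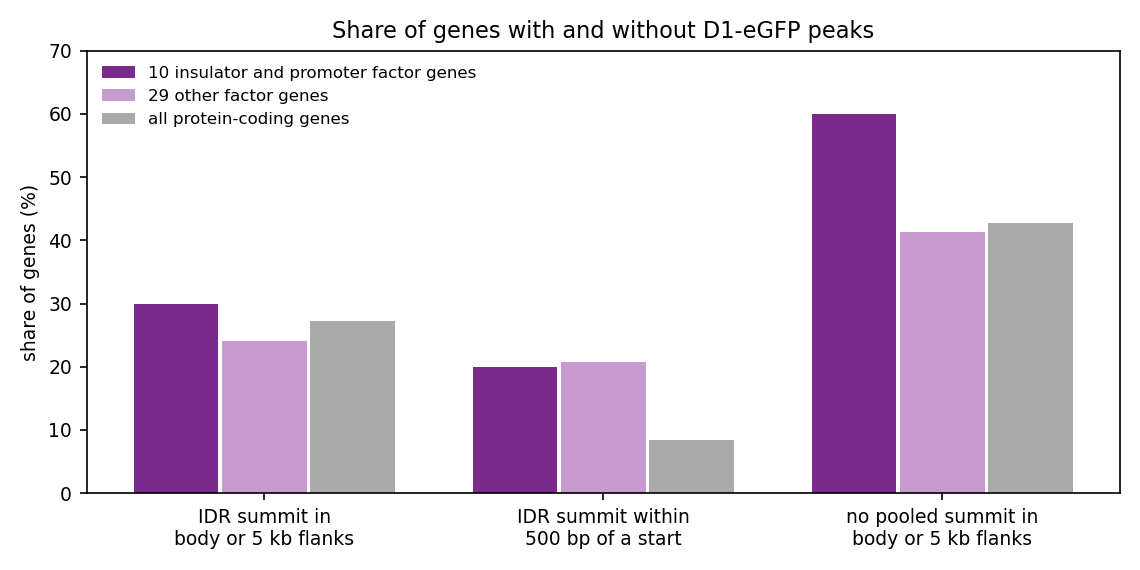
Percent of genes with an IDR summit in the window, with an IDR summit within 500 bp of a start, and with no pooled summit, for the 10 members, the 29 other factor genes and all 13945 protein-coding genes. The members stand at 30.0%, 20.0% and 60.0%, against 27.3%, 8.46% and 42.8% of all protein-coding genes. For the members, 1 gene makes 10% of a bar. No share is adjusted for gene length or number of starts.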

How the data were processed

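D1-eGFP ChIP-seq of whole pupae was measured in 2 biological replicates of 1 group, as the labels give them. The authors deposited peak lists on dm6, per the labels, in which each peak has a signal and a -log10 q-value of theirs. Their text notes say that peaks were called against a control for each replicate and for both pooled, and the IDR set was derived from these. Aligner, caller, signal scale and IDR threshold were not given in the sources used here. Deposited -log10 q values were tied at their maximum in 2286 IDR peaks, so the signal gave the ranks. The IDR set equalled the 3388 highest pooled peaks, so it is no separate measurement. Read depth is unknown, and each of the other lists holds 30000 peaks, so the lengths of the lists do not count bound sites.

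Positions are 1-based. Genes and starts came from Ensembl release 115, and sequence from the NCBI Release 6 assembly. Members and lists were chosen with earlier results of these data known. All 10 members were named with each IDR peak of their windows, their highest pooled peak where there was none, the nearest genes, and other factor genes with an IDR summit within 500 bp of a start. One listed gene, SA, matched no symbol. Sequences printed are on 3L or 3R and outside UTRs. Replicate and pooled summits were matched within 100 bp. A/T stretches of 200 bp were stepped by 10 bp. Nothing was tested, since there was no second condition, and shares are set beside all protein-coding genes. Alternatives were the higher-signal part of the IDR set, the 3388 highest peaks of each replicate alone, and IDR peaks covered over 50% in both of these. Others were midpoints, other windows, start distances, composition widths and match distances. The calculations used Python 3.11.15, pandas 2.3.3, numpy 2.4.6 and matplotlib 3.10.9 and were tested on simulated data.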

Additional observations from a re-analysis of the deposited data

How the results depend on the processing

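The members with a peak stayed Trl, row and mod(mdg4) in each peak set tried, and with 1 or 10 kb either side. The higher-signal and covered sets are parts of the IDR set and could not add a member. A replicate alone stood for its 3388 highest peaks, which are not an IDR set. With gene bodies alone, 1 member was left, Trl, with 3 peaks in place of 7, and their A/T content averaged 60.0% in place of 65.9%. Within 500 bp of a start the 2 members became 1 in the higher 1694 IDR peaks and 1 in the 2297 IDR peaks covered over 50% in both replicates, 0 within 250 bp, 1 without replicate 2 and 2 without replicate 1. The median signal, 251, was 304 in both of those smaller sets and 213 with 1 kb either side. A/T content was 65.7% without replicate 1 and 72.3% without replicate 2. With replicate summits within 50 bp, 4 of the 7 peaks matched both replicates. Dependence on read depth could not be examined, since the files hold peaks only. No paired analysis was possible because the design has 1 group.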
